A study of Vitis vinifera with 24 samples.

Results

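Callus-induced loci lost in embryogenic callus were followed in grapevine (Vitis vinifera) cultures started from anthers. They are loci that were low in anthers, high in undifferentiated callus and in non-embryogenic callus, and low again in embryogenic callus, in both cultivars studied. Of 29971 loci, 27 were members. They were chosen by their group means: a member had 20 FPKM or more (a level corrected for transcript length and library size) in both high tissues, and the lower of these means was at least 10 times the anther mean and the embryogenic mean of the same cultivar. Loci of 4 identifier prefixes, VIT_16s0100g, VIT_05s0077g, VIT_05s0094g and VIT_02s0025g, were left out, which removed 11 of the 38 loci that met the limits in both cultivars. With these prefixes included, the limits were met by 83 loci in Cabernet Sauvignon and by 179 in Sangiovese.

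RNA was sequenced from 24 libraries, 3 labelled biological replicates in each of 8 groups. Both cultivars, Cabernet Sauvignon (CS, labelled poorly competent for embryogenesis) and Sangiovese (SG, labelled highly competent), gave anthers from immature flowers, undifferentiated callus after 40 days in culture (40D), callus classed as non-embryogenic (NEC) and callus classed as embryogenic (EC). All callus came from anthers kept in the dark at 26 °C on an induction medium with the synthetic auxin 2,4-D at 4.5 µM and the cytokinin BAP at 8.9 µM. After 3 months, callus spent 1 month on a medium with 10 µM NOA, 1 µM BAP, 20 µM IAA and 2.5% activated charcoal, and at month 4 it was sorted by eye into EC and NEC under a stereomicroscope. Anthers hold several cell types and each callus piece was extracted whole, so fewer cells of a type and less RNA per cell cannot be told apart. The labels do not say whether replicates came from separate plants or cultures, and p-values measure the spread between these samples.

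Callus is a mass of dividing cells that forms when plant tissue is exposed to auxin and cytokinin. In somatic embryogenesis some of these cells take up an embryo programme after the strong synthetic auxin is reduced or replaced, while other callus on the same medium stays disorganised.

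The deposited identifiers carry no names. The reference gene table held 0 of these identifiers, so no function is given to any locus and the tissue labels could not be checked against known marker genes. The identifier itself gives a chromosome, a scaffold and a locus number. The 27 members lay on 20 scaffolds of 14 chromosomes, with 1 member on sequence not assigned to a chromosome. Chromosomes 9 and 18 had 4 members each, and chromosomes 5 and 14 had 3 each.

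Some libraries stood apart. In SG EC, every one of the 27 members was highest in replicate 1, lowest in replicate 2 and between them in replicate 3, an order found at 35.3% of the 21568 loci tested. The sum over the 11 loci left out by prefix had the same order, at 654, 22.9 and 229 FPKM in SG EC replicates 1, 2 and 3. A set of 129 loci at 20 FPKM or more in EC and 10 times lower in every other tissue of the same cultivar summed to 36842, 44643 and 42003 FPKM in these libraries. In SG NEC the same 129 loci summed to 850, 2719 and 878 FPKM, highest in replicate 2. The part of a mixture of callus types in the results was not tested. The main counts of members called in SG EC are given with and without SG EC replicate 1. Other SG EC values, such as medians, correlations and differences of single loci, include it unless stated. The 40D libraries agreed more closely than the others: the median coefficient of variation over members was 3.78% for CS 40D and 1.53% for SG 40D, while it was 86.1% for SG EC. Column sums ran from 729402 to 938765 FPKM, and relative depth, estimated from the spacing of low values, ran from 0.889 to 1.51 times that of the first CS anther library.

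By group mean, the members held over 1% of all FPKM in each callus group outside EC, and under 0.05% in anthers and EC. They summed to 10779 ± 116 FPKM in CS 40D (mean ± SD over 3 libraries, as for all values in this form) and to 35084 ± 3175 in CS NEC, which was 1.16% and 3.98% of all FPKM. In SG they summed to 11249 ± 160 in 40D and 9801 ± 656 in NEC, or 1.23% and 1.15%. The sums were 162 ± 10.9 FPKM in CS anthers and 122 ± 24.1 in SG anthers, or 0.0213% and 0.0163%. In EC the shares were 0.0305% in CS and 0.0429% in SG, where the libraries ran from 0.0163% to 0.0752%. In CS EC the libraries summed to 218, 276 and 243 FPKM. In SG EC they summed to 587, 125 and 289 FPKM, a range that takes in all 3 CS EC libraries, and the mean of 334 fell to 207 without replicate 1. These contrasts are the ones that chose the members, so they carry no test.

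**Figure D1:**
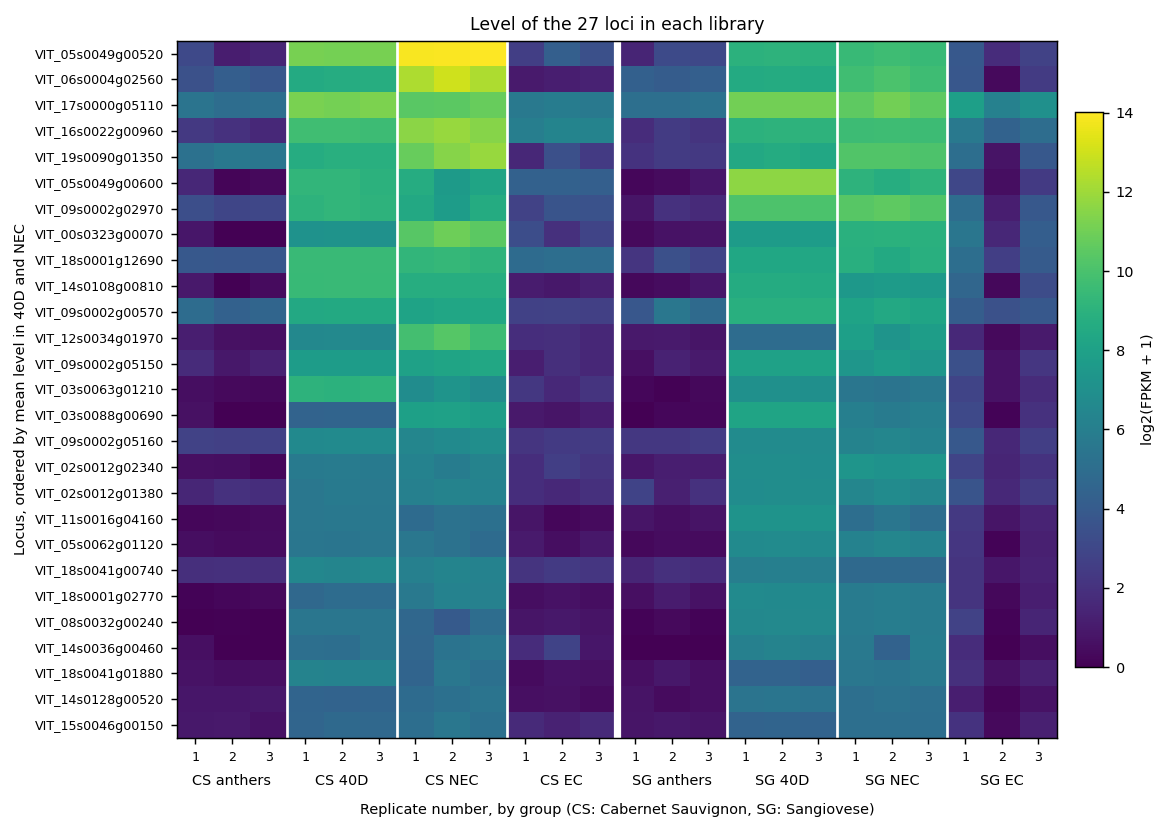
Level of each of the 27 loci (rows, ordered by mean level in 40D and NEC) in each of the 24 libraries (columns, 3 replicates per group), as log2(FPKM + 1). The 40D and NEC columns are bright in both cultivars, CS NEC reaches the highest values in the top row, and the second SG EC library is darker than the first in every row.

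The most abundant member was VIT_05s0049g00520. Its CS NEC libraries had 14999, 15505 and 16669 FPKM, and its CS 40D libraries 2291, 2149 and 2270. In SG NEC it had 710, 804 and 699 FPKM, and in SG 40D 522, 545 and 512. Every CS library of these tissues was above every SG library. In EC it was at 11.0 ± 6.71 FPKM in CS and 7.32 ± 5.82 in SG. This locus alone gave 45.0% of the member sum in CS NEC.

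VIT_06s0004g02560 came next, with 5022, 8106 and 5009 FPKM in CS NEC against 385, 409 and 426 in CS 40D. In SG it had 838, 1055 and 827 FPKM in NEC and 385 ± 5.82 in 40D. Its EC level of 1.28 ± 0.244 FPKM in CS was 0.0212% of its NEC mean, the lowest such share among the members in CS. Its CS 40D and NEC groups did not overlap, and neither did its SG groups.

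VIT_17s0000g05110 had 2345 ± 129 FPKM in CS 40D, 1520 ± 205 in CS NEC, 2090 ± 21.3 in SG 40D and 1697 ± 358 in SG NEC. It also kept the highest EC level of the members in SG, with 237, 71.8 and 128 FPKM. The other members with the highest callus means were VIT_16s0022g00960, VIT_19s0090g01350, VIT_05s0049g00600, VIT_09s0002g02970 and VIT_00s0323g00070. Over all 27, the mean of the 4 high groups ran from 29.6 FPKM at VIT_15s0046g00150 to 4806 at VIT_05s0049g00520, with a median of 207.

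The members differed in which tissue and cultivar held their peak. The highest group mean was in SG 40D for 11 members, in CS NEC for 8, in CS 40D for 6 and in SG NEC for 2. Across members, log2 levels in CS and SG correlated at 0.75 for 40D, 0.85 for NEC, 0.89 for anthers and 0.77 for EC (Pearson, n = 27 loci, which share libraries and are not independent replicates).

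Residual levels in EC varied widely. As a share of the NEC mean, the EC mean ran from 0.0212% to 8.49% in CS, with a median of 2.07%, and from 0.555% to 8.85% in SG, with a median of 4.14%. In CS the lowest shares were those of VIT_06s0004g02560 (0.0212%), VIT_05s0049g00520 (0.0700%) and VIT_19s0090g01350 (0.193%). The highest CS shares were 8.49% at VIT_14s0036g00460, 6.23% at VIT_05s0049g00600 and 5.42% at VIT_02s0012g02340. In SG the lowest were 0.555% at VIT_12s0034g01970, 0.640% at VIT_06s0004g02560 and 0.763% at VIT_05s0049g00600, and the highest were 8.85% at VIT_09s0002g05160, 8.58% at VIT_17s0000g05110 and 7.03% at VIT_18s0041g00740. The SG values moved with the library: the median share was 6.07% in replicate 1, 0.377% in replicate 2 and 3.00% in replicate 3, while the CS medians were 1.93%, 1.76% and 2.15%.

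Callus classed as non-embryogenic was compared with day 40 callus, a contrast that did not choose the members. NEC was taken at month 4, after 1 month on the medium with NOA, BAP, IAA and charcoal. Day 40 callus was taken from the induction medium. Age, medium and class of callus therefore differ together and cannot be told apart, here or in the cultivar difference of this step. The members split. In CS, NEC was higher for 10 members, lower for 4 and not called for 13. In SG it was higher for 6, lower for 6 and not called for 15. Calls are at an adjusted p under 0.05 from limma, fitted to log2(FPKM + 1) over all 21568 tested loci with a spread pooled over the 8 groups. All 27 members were tested. In CS, 37.0% of members were called higher beside 32% of the tested loci, and 14.8% lower beside 31.2%. In SG, 22.2% of members were called in each direction, beside 25.7% of tested loci higher and 21.8% lower. Among the 5030 loci with 20 FPKM or more in all 4 of these callus groups, 29.7% were higher and 36.7% lower in CS, and for SG these shares were 29.2% and 19.1%. The SG split of called loci, 54.1% higher, became 64.9% when columns were scaled to equal sums and 47.1% with median-of-ratios scaling. The members' median log2 difference was -0.01 in CS and -0.32 in SG, against 0.01 and 0.03 over all tested loci.

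The groups of 24 members in CS and 26 in SG did not overlap between NEC and 40D, more than were called. Of the tested loci, 71.6% and 67% did not overlap. Members have 20 FPKM or more in these groups by choice, while the tested loci include lower ones. No share over loci of like level is given, so these counts are not read as a trait of the members. The fit pools its spread over all 8 groups, anthers and EC included. On the FPKM scale, which is not that of the fit, the members' median coefficient of variation there ran from 21.3% to 86.1%. The part of this pooling in the number of calls was not tested. Fitted on NEC and 40D alone, CS had 13 members higher and 11 lower, beside 32.7% of the tested loci each way, and SG 11 higher and 14 lower, beside 32.4% and 27.1%. With each 40D group taken as 1 sample, which is then assumed to vary like the other groups, CS had 7 higher and 2 lower, beside 23.2% and 23.3% of the tested loci, and SG 2 higher and 5 lower, beside 13% and 12.5%.

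In CS the largest rises from 40D to NEC were those of VIT_06s0004g02560, by 3.85 on the log2 scale (standard error 0.49, limma adjusted p = 1.32e-06), VIT_00s0323g00070, by 3.43 (0.60), and VIT_03s0088g00690, by 3.42 (0.42). VIT_00s0323g00070 went from 143 ± 5.42 to 1580 ± 333 FPKM. The largest falls were those of VIT_03s0063g01210, from 532 ± 24.8 to 124 ± 22.6 FPKM, and VIT_18s0041g01880, from 74.2 ± 1.32 to 34.0 ± 11.9 FPKM. VIT_08s0032g00240 was called lower, by 0.96 on the log2 scale, and kept this call in 1 of 6 fits that each left out a library. Leaving out CS NEC replicate 2, or any CS 40D replicate, brought the lower calls from 4 to 2, as VIT_08s0032g00240 and VIT_17s0000g05110 were lost.

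In SG the clearest rises were VIT_12s0034g01970, from 30.7 ± 0.468 to 206 ± 48.5 FPKM, by 2.68 on the log2 scale (standard error 0.24, limma adjusted p = 6.14e-08), and VIT_18s0041g01880, from 20.2 ± 1.64 to 46.4 ± 3.28 FPKM. The other 4 rises, among them VIT_19s0090g01350 by 1.68 and VIT_06s0004g02560 by 1.22, were each lost when any 1 of the 6 compared libraries was left out, so 2 remained. With the replicate number as a block 3 SG rises were called. The largest falls were VIT_05s0049g00600, from 3155 ± 77.1 to 504 ± 73.0 FPKM, VIT_03s0088g00690, from 293 ± 1.92 to 61.6 ± 5.40, and VIT_11s0016g04160, from 147 ± 1.14 to 36.2 ± 6.71. These 3 falls were called in every fit that left out a library and with 40D as 1 sample.

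The test of the cultivar difference asked whether the step from 40D to NEC was the same size in CS and SG. For 10 members the difference, SG minus CS, was lower and for 1 it was higher, or 37.0% and 3.70% of members, beside 20.3% and 22.2% over all loci tested, and 16.4% and 28.3% over the 5030 loci at 20 FPKM or more in callus. The median over members was -0.76 on the log2 scale and 0.02 over all tested loci. With each 40D group as 1 sample, 2 lower and 1 higher remained, VIT_03s0088g00690, VIT_18s0001g02770 and VIT_18s0041g01880. In that fit 9.71% of the tested loci were lower and 9.91% higher. With the 4 compared groups alone, 16 members were lower and 4 higher, beside 25.1% and 28.3% of the tested loci. The lower call of VIT_00s0323g00070 was lost in all 12 fits that left out a library, and that of VIT_05s0049g00600 in 10 of them.

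VIT_03s0088g00690 went opposite ways. It had 21.3, 21.6 and 22.1 FPKM in CS 40D and 248, 257 and 221 in CS NEC. In SG it had 294, 291 and 295 FPKM in 40D and 64.5, 55.4 and 65.0 in NEC. No library of one tissue overlapped with the other in either cultivar, and the difference between cultivars was -5.65 on the log2 scale (standard error 0.59, limma adjusted p = 4.32e-07).

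VIT_18s0041g01880 went the other way, as the only member whose difference was called higher in SG. It had 75.7, 73.0 and 74.0 FPKM in CS 40D and 21.8, 45.6 and 34.6 in CS NEC. In SG it had 21.2, 21.0 and 18.3 FPKM in 40D and 46.1, 43.4 and 49.9 in NEC. The difference was 2.33 (standard error 0.34, limma adjusted p = 2.59e-05). Like VIT_03s0088g00690 and VIT_18s0001g02770, it was called both with 40D as 1 sample and in each of 12 fits that left out a library.

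VIT_06s0004g02560 and VIT_05s0049g00520 had lower differences in SG, of -2.63 (standard error 0.69) and -2.33 (0.75). VIT_05s0049g00520 rose by 2.81 in CS, and its SG difference of 0.49 was not called. Both calls of a cultivar difference were lost with 40D as 1 sample, with limma adjusted p of 0.116 and 0.2. VIT_18s0001g02770 was called higher in CS NEC, by 1.12, and lower in SG NEC, by 0.77, although the SG call was lost in 5 of 6 fits that left out a library. Leaving SG NEC replicate 2 out was the exception. Across the 27 members the log2 steps in the cultivars, which share no library, correlated at 0.51 (Pearson and Spearman alike).

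**Figure D2:**
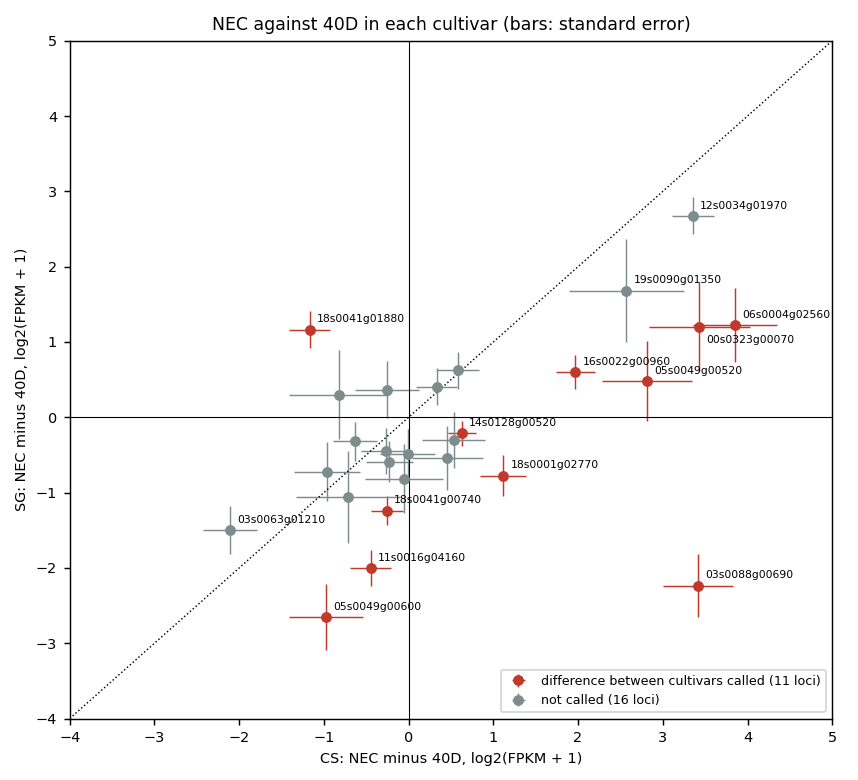
NEC minus 40D on the log2(FPKM + 1) scale in CS (horizontal) and SG (vertical) for the 27 loci, with standard errors from the pooled fit and a dotted line of equal change. Red marks the 11 loci whose step differed between cultivars, 10 of them below the line, and VIT_03s0088g00690 sits alone at the lower right at 3.42 in CS and -2.24 in SG.

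Embryogenic callus was compared with anthers to ask whether the members returned to the anther level. Both tissues were kept low by the choice of members, while the order between them was not. More members were called higher in EC than lower, and so were more of the tested loci. In CS 10 members were higher and 3 lower, or 37.0% and 11.1%, beside 47.6% higher and 33% lower over the tested loci. In SG 15 members were higher and 2 lower, or 55.6% and 7.41%, beside 44.2% higher and 35.4% lower over the tested loci. Without SG EC replicate 1 there were 9 higher and 3 lower in SG, where the share of the tested loci is not given. A fit of SG EC and anthers alone gave 5 higher and 0 lower, beside 40.7% and 32% of the tested loci. The median over all tested loci was 0.22 in CS and 0.11 in SG on the log2 scale, against 0.57 and 0.82 over members, and median-of-ratios scaling brought the median over all loci to 0.01 and 0 and the members to 0.29 and 0.71.

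Levels in these tissues were low. In anthers 15 members had a mean under 1 FPKM in CS and 14 in SG, and in EC 7 and 2 did. At such anther levels log2(FPKM + 1) leaves little room for a lower call in EC. The excess of higher over lower calls is therefore not read as a trait of the members. Of the member values, 11 were listed at 0, 10 of them in anthers and 1 in SG EC, and none in 40D or NEC. An exact 0 can be a failed estimate. VIT_14s0036g00460 held 6 of them and was listed at 0 in all 3 SG anther libraries.

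VIT_16s0022g00960 was higher in EC in both cultivars. It had 4.10, 3.07 and 2.04 FPKM in CS anthers and 62.2, 80.6 and 77.0 in CS EC, a log2 difference of 4.21 (standard error 0.23, limma adjusted p = 1.8e-12). In SG it had 2.49, 4.39 and 3.34 FPKM in anthers and 49.0, 20.0 and 30.7 in EC, a difference of 2.89 (0.23). The tissues did not overlap in either cultivar.

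The next largest in CS were VIT_05s0049g00600, from 0.802 ± 1.03 FPKM in anthers to 18.9 ± 1.01 in EC, and VIT_00s0323g00070, from 0.284 ± 0.456 to 6.05 ± 3.14. Members lower in CS EC were VIT_19s0090g01350, from 43.1 ± 6.05 to 5.31 ± 4.03 FPKM, VIT_06s0004g02560, from 13.5 ± 3.57 to 1.28 ± 0.244, and VIT_09s0002g00570, from 24.0 ± 5.11 to 5.59 ± 0.319. These values did not overlap between the tissues.

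In SG, VIT_00s0323g00070 had 0.265, 0.609 and 0.665 FPKM in anthers and 43.9, 1.93 and 17.3 in EC, a log2 difference of 3.16 (standard error 0.60). This difference ran from 2.29 to 4.25 over 6 fits that each left out a library, and was called in each. VIT_14s0108g00810 had 0.212, 0.404 and 0.785 FPKM in anthers and 23.6, 0.254 and 8.52 in EC, where replicate 2 lay within the anther range. Its difference of 2.20 was not called in the fit of these groups alone, with a limma adjusted p of 0.119. VIT_06s0004g02560 was lower in SG EC, from 17.4 ± 1.32 to 5.80 ± 6.38 FPKM, as was VIT_09s0002g00570, from 29.2 ± 16.8 to 13.5 ± 3.21, and both calls were lost in that fit. The groups of 20 members did not overlap in CS, and those of 6 in SG, while 82.4% and 77.3% of the tested loci did not overlap.

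**Figure D3:**
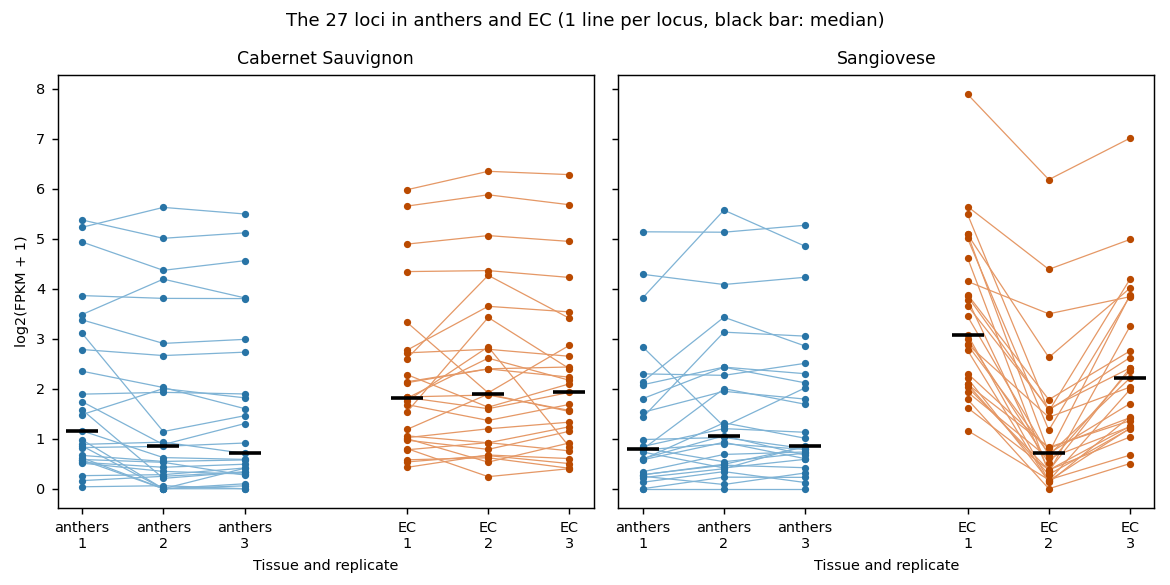
Level of the 27 loci in the anther and EC libraries of CS (left) and SG (right) as log2(FPKM + 1). Each line joins the values of 1 locus in the 3 replicates of a tissue, and the black bar is the median over loci. In SG EC all 27 lines fall to replicate 2, while the CS EC medians lie close together.

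The cultivars were then compared within each tissue. In anthers limma called 0 members higher in SG and 3 lower, beside 20% higher and 23.5% lower over the tested loci. With anther means under 1 FPKM at 15 members in CS and 14 in SG, log2(FPKM + 1) leaves little room for a difference, so nothing is read from this count beside that share. At an unadjusted p under 0.05, 1 member was higher by limma, and without SG anther replicate 1 there were 2 at the adjusted threshold. VIT_19s0090g01350 had 36.6, 48.5 and 44.2 FPKM in CS anthers and 3.85 ± 0.591 in SG anthers, a log2 difference of -3.18 (standard error 0.68, limma adjusted p = 0.000868). VIT_09s0002g02970, at 7.61 ± 1.56 in CS and 1.99 ± 1.16 in SG, and VIT_18s0001g12690, at 13.2 ± 0.332 and 6.48 ± 3.20 FPKM, were also called lower. The calls of both were lost without SG anther replicate 1 or 3 or any CS anther replicate, which left 1.

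In 40D callus 9 members were higher and 7 lower in SG, or 33.3% and 25.9%, close to the 30.8% and 26.1% found over the tested loci. The largest higher value was VIT_03s0088g00690, with a log2 difference of 3.70 (standard error 0.42, limma adjusted p = 3.86e-07). VIT_05s0049g00600 followed, at 573 ± 42.3 FPKM in CS and 3155 ± 77.1 in SG, then VIT_18s0001g02770, at 28.7 ± 2.42 and 101 ± 1.75 FPKM. Lower in SG 40D were VIT_05s0049g00520, by 2.09, VIT_03s0063g01210, at 532 ± 24.8 FPKM in CS and 129 ± 2.67 in SG, and VIT_18s0041g01880, at 74.2 ± 1.32 and 20.2 ± 1.64. The groups of 25 members did not overlap, while 74.5% of the tested loci, lower ones included, did not. Here too no share over loci of like level is given. With each 40D group as 1 sample, which borrows its spread from the remaining groups, 4 were higher and 3 lower, beside 15.1% and 12.1% of the tested loci, and VIT_05s0049g00520 was not among them.

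In NEC 4 members were higher and 8 lower in SG, or 14.8% and 29.6%, beside 31.7% and 21.7% over the tested loci. Median-of-ratios scaling moved the share of higher loci among all called loci from 59.3% to 47.9%, and left the members at 4 and 8. VIT_05s0049g00520 had the largest difference, -4.41 on the log2 scale (standard error 0.53, limma adjusted p = 1.05e-06). VIT_06s0004g02560 differed by -2.71 (0.49), and VIT_12s0034g01970 had 996 ± 272 FPKM in CS and 206 ± 48.5 in SG. Higher in SG NEC were VIT_09s0002g02970, at 324 ± 95.9 FPKM in CS and 1348 ± 153 in SG, VIT_08s0032g00240, at 23.3 ± 8.02 and 57.2 ± 2.94, and VIT_02s0012g02340, at 68.4 ± 9.41 and 153 ± 8.63. These 6 did not overlap between the cultivars, and their calls were kept whichever library was left out.

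In EC 5 members were higher and 5 lower in SG, or 18.5% each way, beside 19.3% higher and 32.1% lower over the tested loci. Median-of-ratios scaling moved the share of higher loci among all called loci from 37.6% to 49.6% and left the members at 5 each way. The counts moved with single libraries: without SG EC replicate 1 there were 3 higher and 9 lower, without SG EC replicate 2 there were 17 higher and 3 lower, and without CS EC replicate 1 there were 3 higher. The shares of all tested loci in these fits are not given here, so these counts are not read as a shift of the members. VIT_05s0049g00600 had 19.3, 19.6 and 17.7 FPKM in CS EC and 6.97, 0.429 and 4.15 in SG EC, a log2 difference of -2.35 (standard error 0.44, limma adjusted p = 0.000203). VIT_16s0022g00960 was lower as well, by 1.20, and so was VIT_18s0001g12690, by 1.06, a call lost without SG EC replicate 2, where its difference was -0.42, and without CS EC replicate 2 or 3. Among those higher in SG EC, VIT_17s0000g05110 had 49.4, 57.9 and 50.3 FPKM in CS and the SG values given above, and VIT_09s0002g00570 had 5.58, 5.92 and 5.28 FPKM in CS and 16.7, 10.3 and 13.3 in SG. Neither overlapped between the cultivars. VIT_14s0108g00810, called higher by 1.66, was called in 1 of 6 fits that left out a library, the one without SG EC replicate 2.

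**Figure D4:**
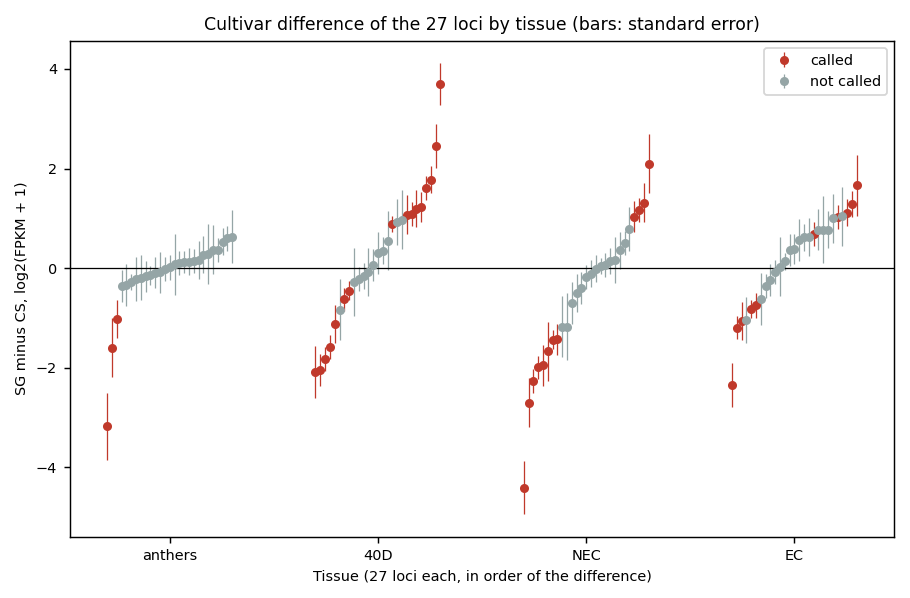
SG minus CS on the log2(FPKM + 1) scale for the 27 loci in each tissue, ordered by size, with standard errors from the pooled fit. Red points passed the threshold: 16 in 40D, 12 in NEC, 10 in EC and 3 in anthers, and the lowest point, at -4.41 in NEC, is VIT_05s0049g00520.

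Most members had no other member nearby. Of the 27, 2 pairs shared a scaffold within 100 locus numbers. VIT_09s0002g05150 and VIT_09s0002g05160 were listed next to each other, with 215 ± 3.01 and 103 ± 4.04 FPKM in CS 40D and 298 ± 40.6 and 104 ± 18.3 in CS NEC. In SG they had 264 ± 0.617 and 108 ± 0.621 FPKM in 40D and 183 ± 29.0 and 77.5 ± 6.08 in NEC. The next locus, VIT_09s0002g05170, had its highest means in anthers, at 73.4 FPKM in CS and 62.2 in SG.

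The other pair, VIT_05s0049g00520 and VIT_05s0049g00600, enclosed a locus that was above both in 40D. VIT_05s0049g00550 had 27446 ± 659 FPKM in CS 40D and 5431 ± 1414 in CS NEC, and means of 23117 and 3920 in SG. It was not a member, since its SG EC mean of 614 FPKM was above the limit, and it met the limits without SG EC replicate 1. VIT_05s0049g00510, next to the first of the pair, had 89.5 and 562 FPKM in CS 40D and NEC but 18.5 and 20.9 in SG, under or near the level limit. Its SG anther level of 11.8 ± 9.73 FPKM also put it far short of the 10-fold limit there. VIT_05s0049g00570 and VIT_05s0049g00610 had their highest means in CS 40D, at 1070 and 384 FPKM. Within SG, VIT_05s0049g00570 was highest in EC, at 331 FPKM against 204 in 40D and 71.3 in NEC. The loci VIT_05s0049g00530, VIT_05s0049g00540, VIT_05s0049g00580 and VIT_05s0049g00590 were listed at 0 in every library. Neighbouring loci of similar sequence may share reads, which could not be examined here. Among all 52 loci listed next to a member, 7 were at least 2 times higher in both callus types than in anthers and EC of both cultivars, and so were 1146 of all 29971 loci.

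**Figure D5:**
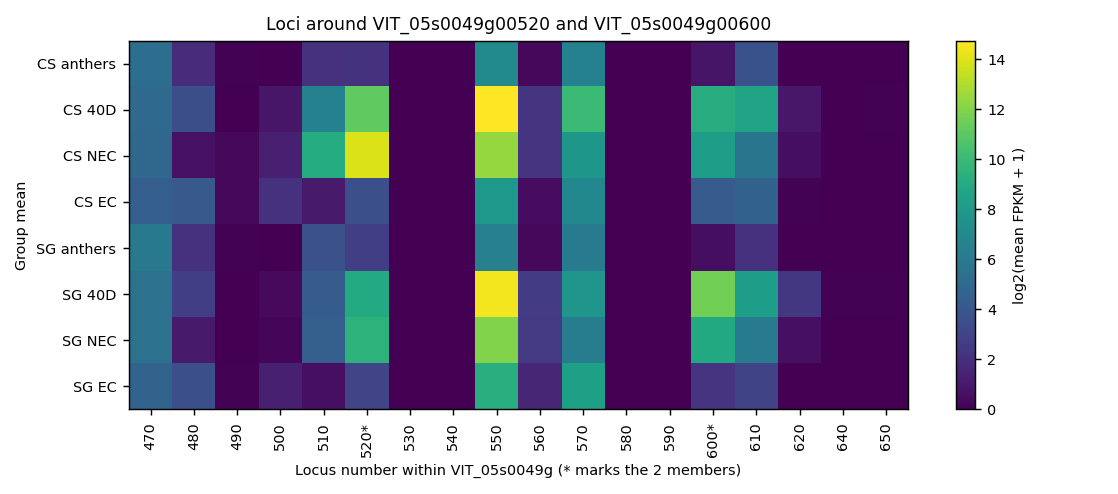
Mean level in each of the 8 groups (rows) of the loci numbered 470 to 650 on scaffold VIT_05s0049g (columns, in order of locus number), as log2(mean FPKM + 1). Stars mark the members, and the brightest column, number 550, reaches 27446 FPKM in CS 40D.

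The limits that define the set pass through a continuous range. Nearest inside the 10-fold limit were VIT_00s0323g00070, whose smallest fold was 10.0, over SG EC, VIT_19s0090g01350 at 10.3, over CS anthers, and VIT_09s0002g00570 at 10.5, over SG anthers. Nearest outside were VIT_03s0091g00310 at 9.77, VIT_12s0034g01950 at 9.55 and VIT_18s0001g15410 at 9.51. At the level limit, VIT_18s0041g01880 was just inside with a lowest callus mean of 20.2 FPKM, followed by VIT_15s0046g00150 at 21.4 and VIT_03s0088g00690 at 21.7. Just outside it were VIT_11s0118g00650 at 19.7, VIT_00s0218g00170 at 19.0 and VIT_15s0021g02700 at 16.4 FPKM. When single libraries were left out, 10 of the 27 members dropped out at least once, and the number of members ran from 22 without SG EC replicate 2 to 32 without SG EC replicate 1.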

How the data were processed

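The authors deposited FPKM values with 1 column per library, per the file headers, and no counts. CASAVA 1.8.2, TopHat2 2.0.9 and Cufflinks 2.1.1 are named in the submitters' processing notes. Not given in the sources used here: genome build, annotation and any scaling between libraries. Libraries were non-directional, per the labels' protocols, so overlapping loci on opposite strands cannot be told apart. Because FPKM values are not counts, count models were not applied, and read depth is known only in relative terms.

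The members were found from group means over 3 replicates. Differences were tested on log2(FPKM + 1) with limma (version 3.58.1, under R 4.3.3). The 21568 loci tested reached 1 FPKM in 3 libraries or more. All 24 libraries entered 1 fit with 1 mean per group and a spread moderated along expression, leaving 16 residual degrees of freedom. Adjusted p is the Benjamini-Hochberg value over all tested loci within a comparison. Fold changes on this scale understate those of low loci. No 2 libraries held identical values. The steps were tested on simulated data.

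Only comparisons that did not choose the members were tested. The members, lists and alternatives were chosen with earlier results of these data known. Loci were named for level, for the 3 largest called changes each way per comparison (in anthers and EC at 1 FPKM or more), for nearness to a limit, for the extremes of the EC share and for neighbouring position. The other loci named were chosen after their values were seen. Deviations of same-numbered replicates correlated at -0.265 to 0.172 over the comparisons, and the main fit did not pair them. The highest values, 0.158 and 0.172, were those of SG EC with CS EC in replicates 1 and 2. EC was not set against NEC in this check. Whether same-numbered libraries share plants or cultures is not known.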

Additional observations from a re-analysis of the deposited data

Results flagged for a closer look

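The step from 40D to NEC was called different between the cultivars for some members, while 16 of the 27 were not called. It was called lower in SG for 10 members and higher for 1, or 37.0% and 3.70%, beside 20.3% and 22.2% of the tested loci. With each 40D group as 1 sample, most of these calls were lost, among them those of VIT_06s0004g02560 and VIT_05s0049g00520, named next. The largest differences, SG minus CS on the log2 scale, were -5.65 at VIT_03s0088g00690, -2.63 at VIT_06s0004g02560, -2.33 at VIT_05s0049g00520 and 2.33 at VIT_18s0041g01880.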

How the results depend on the processing

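The counts of called members in this section show how they moved, without the share over all tested loci unless it is given above. They are not read as results about the members. With the compared groups alone, NEC against 40D gave 11 lower for CS, and for SG 11 higher and 14 lower. EC against anthers gave 5 lower for CS, and for SG 5 higher and 0 lower. SG against CS gave 3 higher in anthers, 14 higher and 11 lower in 40D, and 1 higher and 2 lower in EC. The cultivar difference of NEC against 40D gave 4 higher and 16 lower. With each 40D group as 1 sample there were 2 lower in CS and 2 higher in SG for NEC against 40D, 4 higher and 3 lower for SG against CS in 40D, and 2 lower for the cultivar difference. A pseudocount of 0.1 gave 2 higher in SG for NEC against 40D, 3 higher for SG against CS in anthers, 2 higher in NEC, and 6 lower for the cultivar difference. For NEC against 40D in SG, no filter, the replicate block and median-of-ratios scaling each gave 3 higher. For SG against CS in anthers, median-of-ratios scaling and equal sums each gave 1 higher. Equal sums gave 2 lower for NEC against 40D in CS. Asking for a log2 fold change of at least 1 gave 2 lower there, 1 lower for EC against anthers in SG and 3 lower for SG against CS in EC. Without SG EC replicate 1 and SG NEC replicate 2 together, which stood apart in earlier results, 8 were higher for EC against anthers in SG, and 3 higher and 8 lower for SG against CS in EC.

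Leaving out 1 library at a time gave, for NEC against 40D, 9 to 10 higher and 2 to 4 lower for CS, and for SG 2 higher and 5 to 6 lower. EC against anthers gave 9 to 11 higher and 3 lower for CS, and for SG 9 to 22 higher and 2 to 3 lower. SG against CS gave 0 to 2 higher and 1 to 3 lower in anthers, 8 higher and 5 to 6 lower in 40D, 4 to 5 higher and 7 to 8 lower in NEC, and 3 to 17 higher and 3 to 9 lower in EC. The cultivar difference gave 1 higher and 8 to 9 lower. For the 48 named differences, 730 recomputed values kept direction and call, 63 kept direction without the call and 0 reversed. The set had 39 members after median-of-ratios scaling, 18 with equal sums and 29 with medians in place of means. Among those lost with equal sums were VIT_03s0088g00690, VIT_18s0041g01880, VIT_16s0022g00960, VIT_00s0323g00070 and VIT_19s0090g01350, whose changes are described above. Apart from the SG rises named above, the replicate block lost single calls of members in 3 comparisons. The causes of these changes were not tested.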

Other observations

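Left-out prefixes included, loci that met the limits in a single cultivar were more numerous than the 38 that met them in both. In CS alone there were 45, of which 28 had a callus mean under 20 FPKM in SG, 23 were under 10 times SG anthers and 29 under 10 times SG EC. For 11 of them the SG EC level was the only limit missed. In SG alone there were 141, of which 70 were under the level limit in CS, 35 under 10 times CS anthers and 122 under 10 times CS EC. The CS EC level was the only limit missed for 61.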
